A study of Mus musculus with 7 samples.

Results

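The Slco1 genes encode organic anion transporting polypeptides, membrane carriers that move bile acids, steroid conjugates, thyroid hormones and many drugs into cells, and in rodents they lie side by side as a cluster of duplicated genes. Slco1a1, Slco1a4 and Slco1b2 are the members best known for uptake across the basolateral membrane of hepatocytes, Slco1c1 is best known as a thyroxine carrier of brain capillaries and choroid plexus, and Slco1a5 and Slco1a6 are better known from intestine, brain or kidney than from liver. CTCF is a zinc finger protein that binds a long, non-palindromic motif, and cohesin, the ring complex of which Rad21 is a subunit, extrudes chromatin loops and is often halted at CTCF, most readily where the motifs of both anchors point toward each other. Cohesin is also found without CTCF, typically near promoters and enhancers.

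CTCF and Rad21 binding around these genes was taken from ChIP-seq of whole liver of 8-week-old female mice of the outbred stock Crl:CD1(ICR). The labels name no treatment and no engineered allele. There were 4 CTCF libraries and 3 Rad21 libraries, made from crosslinked nuclei, and the authors called 1 merged peak list per antibody from the pooled libraries. Whole liver holds hepatocytes together with endothelial, Kupffer and other cells, and the assay does not separate them. Expression was not measured in these samples, so the presence of the labelled tissue could not be checked against marker genes, and nothing below refers to transcript levels. No male sample was analysed here.

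The region was the span of the 6 members, Slco1c1, Slco1b2, Slco1a4, Slco1a1, Slco1a6 and Slco1a5, on chromosome 6 of mm9, extended by 100 kb on each side. The members span chr6:141472907-142271501, or 799 kb, and the window is chr6:141372907-142371501, or 999 kb. It held 20 of the 68667 CTCF peaks and 30 of the 68656 Rad21 peaks of the merged lists. The outermost peaks of the window carried both factors, at chr6:141378647-141379054 on the left and chr6:142335318-142336122 on the right, and the nearest peaks beyond its edges began at 141323677 and 142399962, with fold enrichments of 8.68 and 3.51 for Rad21. Since each list comes from a pool, the spread between mice is unknown, no difference below was tested between replicates, and read depth per peak is not given in the lists.

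All 6 members were found in the mm9 annotation within this window. Slco1c1 (chr6:141472907-141518241) and Slco1b2 (chr6:141578039-141635167) lie on the plus strand. Slco1a4 (chr6:141753961-141804720), Slco1a1 (chr6:141855803-141895483), Slco1a6 (chr6:142034282-142157042) and Slco1a5 (chr6:142182748-142271501) lie on the minus strand. A pair of further protein-coding genes, Gm5724 between Slco1b2 and Slco1a4 and Gm6614 between Slco1a1 and Slco1a6, belong to the same gene family by sequence. Their coding sequences aligned to those of the 4 Slco1a members with 83.0 to 87.0% identity, against 84.0 to 89.3% among the 4 Slco1a members and 58.8 to 60.9% between Slco1a members and Slco1b2 or Slco1c1. Gene starts below are those of the gene records, and a distance with a minus sign is upstream with respect to the gene's own strand.

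CTCF peaks sharing at least 1 bp with a Rad21 peak were classed as CAC (cohesin-and-CTCF), the other CTCF peaks as Lone CTCF, and Rad21 peaks without a CTCF peak as CNC (cohesin-non-CTCF). A 20-bp CTCF motif, with the consensus tggccaccagggggcgccgg, was counted as present if its best match, no farther than 100 bp from the summit, reached 13.6 bits, a score met by 1% of flanking windows. In the window 10 of 17 CAC peaks and 1 of 3 Lone CTCF peaks of the CTCF list had such a motif, beside 47.0 and 40.4% of these classes on even-numbered autosomes. The called motifs nearest to the members on either side are shown because their strands give the direction in which each site faces, and a motif of the left flank is shown first because it resembles a pair of them, with the motif in capitals, 20 bases of mm9 on each side in lower case, and each sequence read 5′ to 3′ on the strand of the motif.

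Pde3a intron, left flank, motif at chr6:141378845-141378864, minus strand: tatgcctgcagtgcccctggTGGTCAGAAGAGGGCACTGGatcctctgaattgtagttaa

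Upstream of Slco1c1, motif at chr6:141448225-141448244, plus strand: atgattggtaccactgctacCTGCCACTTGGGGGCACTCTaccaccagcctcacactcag

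Between Slco1c1 and Slco1b2, motif at chr6:141525368-141525387, minus strand: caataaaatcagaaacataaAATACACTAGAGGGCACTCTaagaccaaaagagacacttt

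Beyond the 3′ end of Slco1a4, motif at chr6:141746549-141746568, minus strand: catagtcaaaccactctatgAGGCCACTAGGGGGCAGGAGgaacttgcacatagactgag

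Between Slco1a4 and Slco1a1, motif at chr6:141836970-141836989, plus strand: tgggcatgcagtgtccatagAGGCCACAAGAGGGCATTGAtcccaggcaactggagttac

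Between Gm6614 and Slco1a6, motif at chr6:141989189-141989208, minus strand: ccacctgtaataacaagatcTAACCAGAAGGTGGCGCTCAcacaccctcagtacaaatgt

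Upstream of Slco1a5, Lone CTCF, motif at chr6:142275307-142275326, plus strand: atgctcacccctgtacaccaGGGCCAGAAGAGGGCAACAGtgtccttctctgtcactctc

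Between Slco1a5 and Pyroxd1, motif at chr6:142292266-142292285, minus strand: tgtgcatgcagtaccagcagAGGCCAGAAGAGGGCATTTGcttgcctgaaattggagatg

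All but 1 of these sites are CAC. The exception, just upstream of Slco1a5, had a motif score of 19.2 bits but the lowest CTCF fold enrichment of the window, 2.89. Of these, 3 sequences also resembled each other outside the motif. The Pde3a site and the site between Slco1a4 and Slco1a1 had the same base at 25 of the 40 positions outside the motif, and the site between Slco1a5 and Pyroxd1 matched them at 20 and 18 positions. The median over all 55 pairs of the window's 11 called motifs was 11. In mouse, many CTCF motifs lie in copies of short interspersed elements, but repeat annotation was not used here and the origin of the shared bases was not tested.

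CAC peaks made up 17 of the 20 CTCF peaks of the window (85%, Wilson 95% interval 63.96 to 94.8%), beside 73.7% of the whole CTCF list. Of the 30 Rad21 peaks, 17 were CAC (56.7%, 39.2 to 72.6%), beside 73.6% of the whole Rad21 list, and 13 were CNC (43.3%, 27.4 to 60.8%). The intervals cover counting error only. In the whole Rad21 list 26.4% of the peaks were CNC. Among Rad21 peaks with a −log10 q of at least 10, 2 of 16 in the window (12.5%) and 10.3% in the whole list were CNC, so the larger share of CNC peaks in the window lay in weak calls. Neighbouring peaks of 1 locus are not independent, and the intervals do not serve as a test against the whole list.

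The peaks were unevenly placed. The left flank, which holds the end of Pde3a, a phosphodiesterase gene, had 5 CTCF and 6 Rad21 peaks in 100 kb, and the right flank, with Pyroxd1, Recql, a DNA helicase gene, and Golt1b, had 5 and 4. The 799 kb from the start of Slco1c1 to the start of Slco1a5 held 10 CTCF and 20 Rad21 peaks, namely 8 CAC, 2 Lone CTCF and 12 CNC. In all, 12 of the 13 CNC peaks of the window therefore lay between the members' outer ends.

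**Figure D1:**
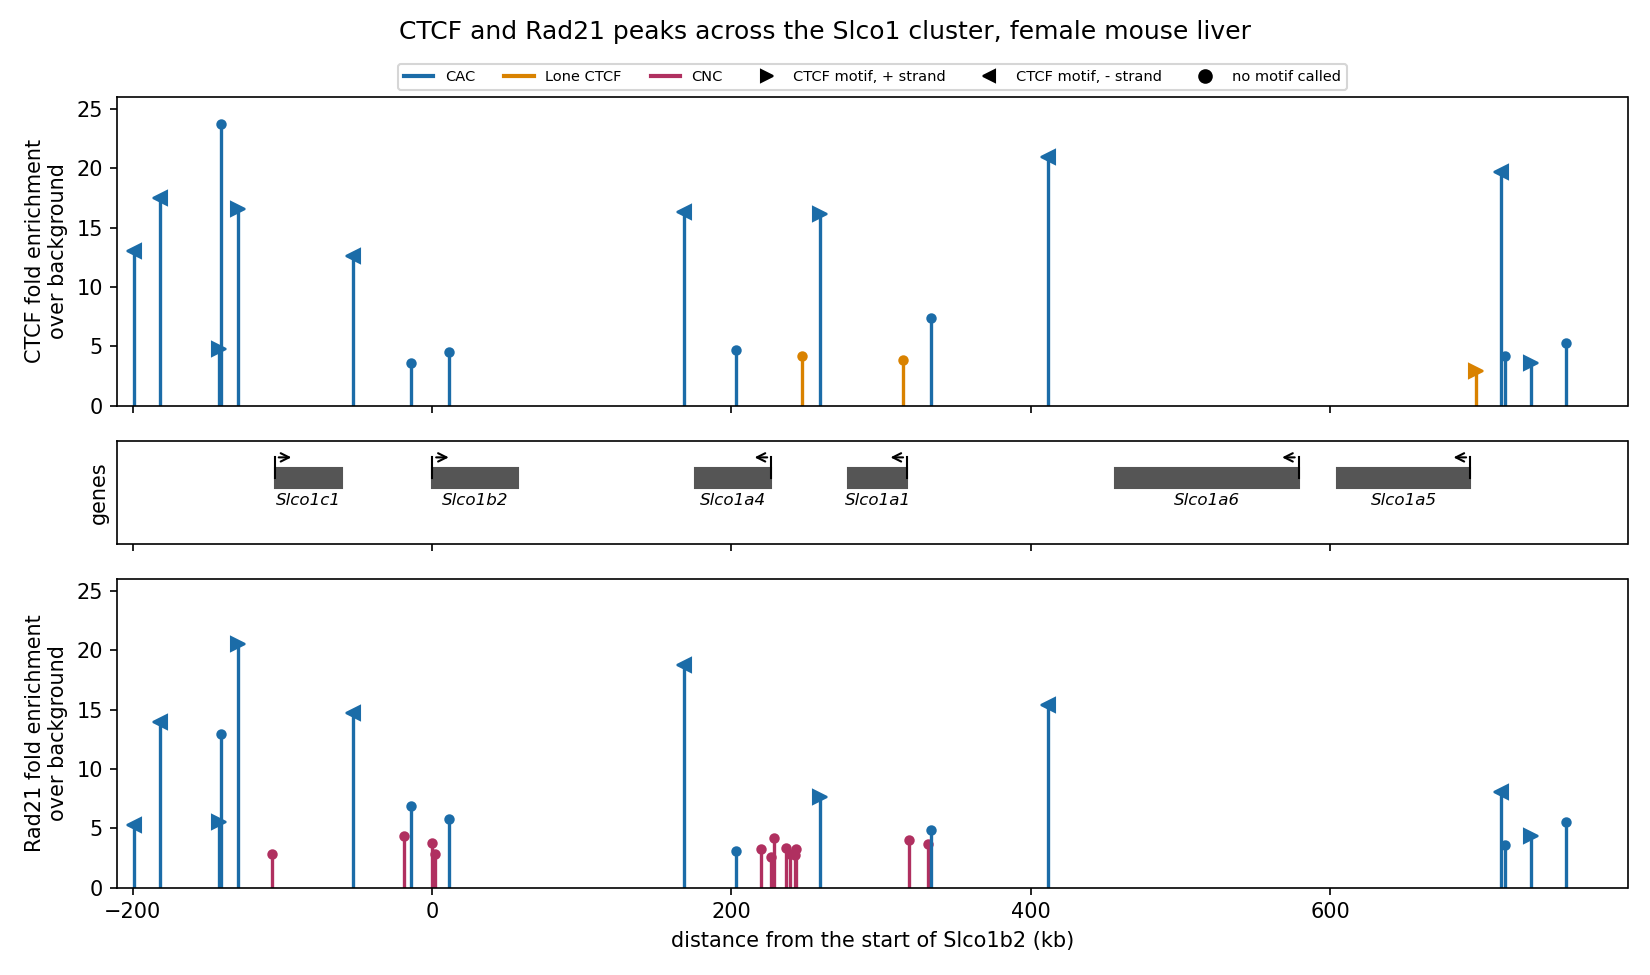
Fold enrichment over local background of each CTCF peak (top) and Rad21 peak (bottom) against the distance of its summit from the start of Slco1b2 in kb, with the 6 members as bars and arrows at their starts (middle). Colours give the class and triangles the strand of a called CTCF motif. The tallest CAC peaks stand in both flanks and between the members, 7 of the 13 CNC peaks gather around the start of Slco1a4 (up to 4.20), and no peak lies in the 285 kb that contain Slco1a6 and Slco1a5.

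Per Mb, the window held 20.03 CTCF and 30.04 Rad21 peaks, against 27.1 and 27.2 over all autosomes. CAC peaks numbered 17.02 per Mb against 20.01, and Lone CTCF peaks 3.004 against 7.10. CNC peaks numbered 13.02 per Mb against 7.23, and 77.4% of 2466 autosomal tiles of the window's length had fewer CNC peaks. For CTCF, 47.0% of the tiles had fewer peaks, so the window was unexceptional in its number of CTCF peaks.

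In the CTCF list, the 17 CAC peaks had a median fold enrichment of 12.6 (range 3.57 to 23.7), beside 8.47 for all CAC peaks of that list. The same sites had a median of 6.86 in the Rad21 list (3.04 to 20.5), beside 6.15. The 3 Lone CTCF peaks had a median of 3.81 (2.89 to 4.21), beside 3.85, and the 13 CNC peaks 3.28 (2.55 to 4.31), beside 3.48. The strongest CTCF peaks of the window were therefore all CAC, and the medians of its single-factor peaks were near those of their classes. A −log10 q of at least 10 was reached in the CTCF list by 15 of 17 CAC peaks, beside 82.4% of all CAC peaks, and by 0 of 3 Lone CTCF peaks, beside 46.1%. In the Rad21 list it was reached by 14 of 17 CAC peaks, beside 78.3%, and by 2 of 13 CNC peaks, beside 25.1%.

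**Figure D2:**
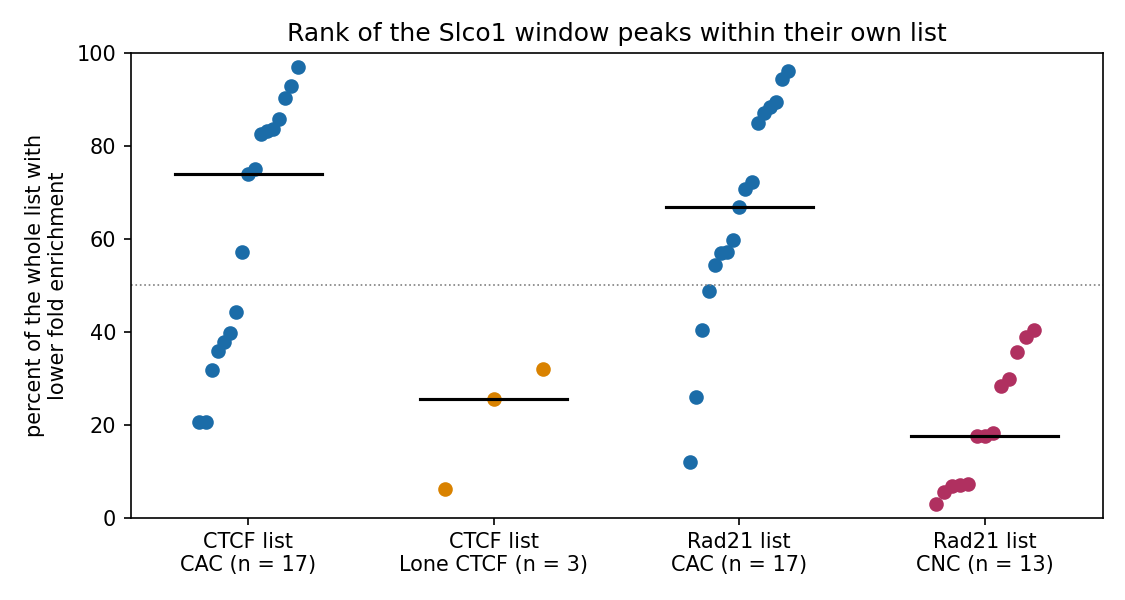
Percent of the whole list with a lower fold enrichment (y axis) for each peak of the window, by list and class, with a horizontal bar at the median. In the CTCF list CAC peaks spread from 20.6 to 97.0%. In the Rad21 list they spread from 11.99 to 96.2% and CNC peaks from 3.02 to 40.4%, so the ranges overlap.

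The highest CTCF fold enrichment, 23.7, was in the left flank at chr6:141437124-141437526, in a coding exon of Pde3a. It ranked above 97.0% of the CTCF list, yet its best motif match was 9.98 bits and no motif was called. Next came the site between Gm6614 and Slco1a6 (chr6:141988970-141989630) with 20.9 and the site between Slco1a5 and Pyroxd1 (chr6:142292093-142292478) with 19.7. These CAC peaks are the last on either side of Slco1a6 and Slco1a5, and both had the motif on the minus strand. In the Rad21 list they had 15.4 and 8.03.

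A further 4 CAC peaks stood between members or at their outer end with fold enrichments over 10 in the CTCF list. The site upstream of Slco1c1 (chr6:141447835-141448426) had 16.6 for CTCF and the highest Rad21 fold enrichment of the window, 20.5. The site 52.5 kb downstream of the Slco1c1 start had 12.6 for CTCF and 14.7 for Rad21. The site beyond the 3′ end of Slco1a4 (chr6:141746306-141746930) had 16.3 and 18.8, and also the best motif of the window, 22.1 bits. The site between Slco1a4 and Slco1a1 (chr6:141836490-141837203) had 16.1 for CTCF and 7.63 for Rad21, above 82.6 and 70.6% of the respective list.

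In Pde3a introns of the left flank lay 3 further CAC peaks, with CTCF fold enrichments of 13.1, 17.5 and 4.81. Another 3 CAC peaks lay inside Slco1b2 and Slco1a4 and upstream of Slco1a1. The intronic site of Slco1b2 had 4.49 for CTCF, the intronic site of Slco1a4 had 4.67, and the site 15.6 kb upstream of the Slco1a1 start had 7.39. None of these 3 had a called motif. On the right, the CAC peak at the start of Pyroxd1 had 4.20, with a best match of 13.1 bits, just below the threshold. The CAC peak that overlapped the starts of both Recql and Golt1b had 5.30. Across the 17 CAC sites the CTCF and Rad21 summits lay a median of 42 bp apart (2 to 235 bp). Sites with more CTCF tended to have more Rad21 (Spearman's rho 0.71, n = 17, against 0.76 over 51787 pairs of the lists), a description across sites that share both pools.

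No member had a CTCF peak within 1 kb of its start, whereas 50.9% of 21418 protein-coding autosomal genes did. Within 10 kb, 2 of 6 members had one (Slco1a1 and Slco1a5), beside 71.3% of all genes, and within 25 kb 5 of 6 did, beside 80.8%. For Rad21 the counts were 3, 4 and 5 of 6 within 1, 10 and 25 kb, beside 50.5, 69.6 and 79.5% of all genes. The median distance from a member start to the nearest CTCF peak was 15.6 kb, beside 0.841 kb for all genes, and to the nearest Rad21 peak 1.26 kb, beside 0.905 kb. With peaks of −log10 q of at least 10 alone, 0 of 6 members had a CTCF peak within 10 kb, beside 66.3% of all genes, and 0 and 1 of 6 had a Rad21 peak within 1 and 10 kb, beside 40.3 and 61.9%. The median distance to such a Rad21 peak was 18.0 kb for the members and 3.93 kb for all genes.

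Every Rad21 peak within 1 kb of a member start was a CNC peak. Such peaks were present at 3 of 6 members (Slco1b2, Slco1a4 and Slco1a1), beside 9.20% of all genes, and within 10 kb they were present at 4 of 6 (Slco1c1 as well), beside 20.9%. The 3 with a peak within 1 kb are those named above as best known from hepatocytes, but a link to expression was not tested. Of 16 other hepatic transporter genes, 3 had a CNC peak within 1 kb. The median distance to the nearest CNC peak was 1.26 kb over the members and 49.0 kb over all genes. The 3 peaks within 1 kb were weak, with −log10 q values of 7.58, 3.05 and 8.02, and none remained at a minimum of 10, so these counts rest on weak calls.

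**Figure D3:**
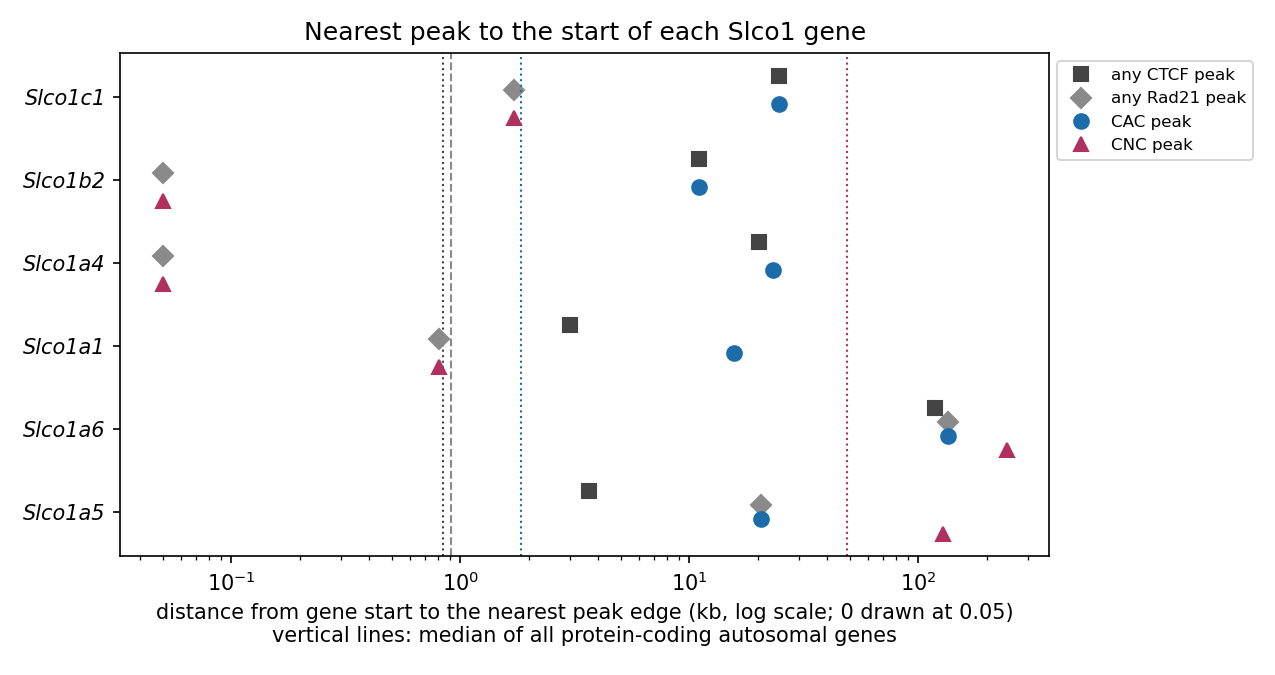
Distance from the start of each member (y axis) to the nearest edge of a CTCF, Rad21, CAC or CNC peak in kb, on a log scale with 0 drawn at 0.05; vertical lines are medians of all protein-coding autosomal genes. CNC peaks sit at or within 1.72 kb of 4 starts, left of their 49.0 kb median, while every CAC peak lies to the right of its 1.84 kb median.

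Slco1b2 encodes a main bile acid and drug carrier of hepatocytes. A CNC peak overlapped its start (chr6:141577998-141578252), with a summit 89 bp downstream of it, a fold enrichment of 3.78 and a rank above 29.9% of the Rad21 list. Another CNC peak lay 2.28 kb downstream by its summit, with 2.81. The nearest CTCF peak was the intronic CAC peak 11.04 kb downstream, at chr6:141589083-141589396. Upstream lay the strongest CNC peak of the window, with 4.31, whose summit lay at −18.5 kb. Nearer to the start, with summits at −14.1 kb, lay a CAC site with 6.86 for Rad21 and 3.57 for CTCF.

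Slco1a4 encodes a carrier of bile acids and cardiac glycosides that is also present in brain capillaries. A CNC peak overlapped its start as well (chr6:141804514-141804765), with the lowest Rad21 fold enrichment of the window, 2.55. It was 1 of 7 CNC peaks within 23.6 kb, from 141797576 to 141821172, with no CTCF peak among them. Of the 7, 5 lay upstream of the start, with summits at −1.64, −9.80, −12.7, −15.7 and −16.3 kb, and 1 lay in an intron at 6.96 kb. The fold enrichments ran from 2.55 to 4.20 with a median of 3.28, and 1 peak, the one at −1.64 kb, reached a −log10 q of 10.

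Each of these 7 peaks had 6 other CNC peaks within 25 kb. Of 17866 autosomal CNC peaks, 241 (1.35%) had that many, and the median was 1. The grouping was noticed in these lists, and whether it differs between mice was not tested. The nearest CTCF peak to the start, a Lone CTCF peak at chr6:141824894-141825193, lay at −20.2 kb, just beyond the outermost CNC peak, with 4.21, the highest of the 3 Lone CTCF peaks. The nearest CAC peak was in an intron 23.2 kb downstream, and with peaks of −log10 q of at least 10 in both lists it was the site at −31.8 kb instead.

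Slco1a1 encodes a steroid conjugate and bile acid carrier whose expression in mouse liver is known to be higher in males. Its nearest Rad21 peak was a CNC peak at −0.802 kb (chr6:141896285-141896743) with 4.03, above 35.6% of the Rad21 list. A further CNC peak lay at −13.6 kb by its summit, with 3.69. Its nearest CTCF peak was Lone CTCF, 3.02 kb downstream in an intron (chr6:141892251-141892468), with 3.81. Its nearest CAC peak lay at −15.6 kb.

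Slco1c1 had no peak of either list inside the gene. Its nearest Rad21 peak was a CNC peak at −1.72 kb (chr6:141470996-141471190) with 2.82 and a −log10 q of 2.66, above 7.08% of the Rad21 list. Its nearest CTCF peak was the strong CAC site at −24.5 kb, with 16.6.

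Slco1a6 and Slco1a5 also had no peak of either list inside the gene. For Slco1a6 the nearest CTCF peak lay at −118 kb and the nearest Rad21 peak at −135 kb, farther than in 91.7 and 91.4% of all genes. For Slco1a5 the nearest CTCF peak was the same Lone CTCF peak, at −3.63 kb (chr6:142275128-142275402), and the nearest Rad21 peak was the same CAC peak, at −20.6 kb (chr6:142292108-142292495), with 8.03. From any annotated transcript start, Slco1a6 came to 116 kb from a peak on the other side, so its position relative to CTCF and Rad21 remained remote. The nearest CNC peaks lay at −243 kb for Slco1a6 and −128 kb for Slco1a5.

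The stretch without a peak of either list that contains both genes ran from 141989631 to 142275127, or 285 kb, and also held the whole of Iapp, the amylin gene of pancreatic islets. It was longer than 98.7% of the 83600 autosomal intervals between peaks. Such long intervals cover much of the genome, however, since 30.1% of autosomal sequence lies in intervals at least this long. Another stretch of 157 kb, from 141589493 to 141746286, held 80.0% of Slco1b2 and all of Gm5724. Shorter ones held all of Gm6614 (77.3 kb) and 91.9% of Slco1a1 (55.0 kb).

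Because the authors kept uniquely mapped reads, tandem copies can hide binding. Of all positions in the window, 88.5% began a 50-mer that occurs once in the genome. The share was 97.2% in Slco1c1, 96.2% in Slco1b2, 97.8% in Slco1a4 and 97.5% in Slco1a1, but 79.7% in Slco1a6 and 88.3% in Slco1a5. In the 285 kb without a peak it was 79.8%, and in the 157 kb stretch 86.9%. Most of the sequence in both stretches could therefore receive unique reads, and the part of the remaining positions in the absence of peaks was not tested. Of the window's peaks, 19 of 20 CTCF and 29 of 30 Rad21 peaks had unique 50-mers at 90% or more of their positions, and the exceptions were the pair that forms the CAC site upstream of Slco1a1, at 77.6 and 81.01%.

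**Figure D4:**
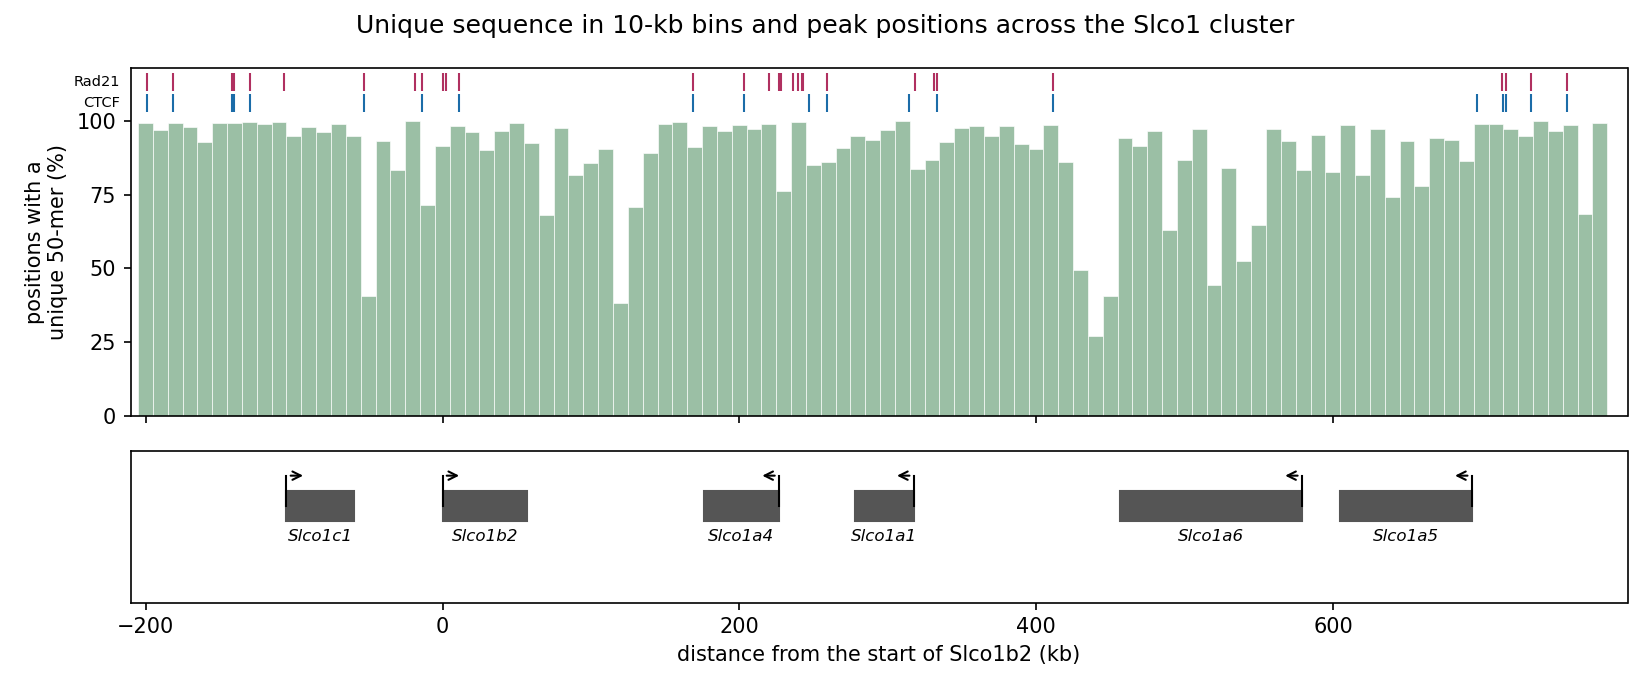
Percent of positions that begin a unique 50-mer in 10-kb bins (bars, y axis) against the distance from the start of Slco1b2 in kb, with ticks for CTCF and Rad21 summits above and the 6 members below. The stretch without a peak around Slco1a6 and Slco1a5 holds several bins under 50%, yet most of its bins are above 75%.

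The strands of the called motifs were read on either side of each member start, among CAC peaks only. CAC peaks without a called motif were passed over, and such peaks lay inside the intervals around the starts of Slco1b2, Slco1a4 and Slco1a1. The start of Slco1c1 lay between motifs that point toward each other (convergent), plus at the site upstream of it and minus at the site downstream, with summits 77.2 kb apart. The start of Slco1a1 lay between another convergent pair, 152 kb apart, formed by the site between Slco1a4 and Slco1a1 and the site between Gm6614 and Slco1a6. That interval also held Gm6614. The start of Slco1b2 lay between motifs on the same strand, minus and minus, 221 kb apart. Those of Slco1a6 and Slco1a5 lay together between minus-strand motifs 303 kb apart. The plus-strand motif of the Lone CTCF peak just outside the Slco1a5 start was left aside because no Rad21 peak overlapped that weak peak. The start of Slco1a4, with its run of CNC peaks, lay between motifs that point away from each other, 90.4 kb apart. Contacts between sites were not measured in these samples.

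None of the 13 CNC peaks had a called motif. Taking 3 of 13 as an approximate upper limit for a count of 0 gives a share of 23.1%, which treats the peaks as independent. In the Rad21 list, on even-numbered autosomes, a motif was called in 2.87% of CNC and 45.8% of CAC peaks. In the window, 10 of 17 CAC peaks of the Rad21 list had one, 4 on the plus and 6 on the minus strand. The best score among the CNC peaks was 9.28 bits, at the outermost peak of the run upstream of Slco1a4.

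The 250 bases before the starts of Slco1b2, Slco1a4 and Slco1a1 are shown because a CNC peak overlapped these starts or lay within 1 kb of them. They were read from mm9 on the strand of each gene, 5′ to 3′, and capitals mark matches to TATAAA (a core promoter element), CCAAT (bound by NF-Y), GTTAAT (a half-site of HNF1, a hepatocyte factor) or AGGTCA (a nuclear receptor half-site), searched on both strands. The CNC peaks, from 141577998 at Slco1b2 and up to 141804765 at Slco1a4, covered only the bases next to the start. At Slco1a1 the peak began at 141896285, outside the sequence shown. No marked match lay inside a CNC peak.

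Slco1b2, chr6:141577789-141578038, plus strand: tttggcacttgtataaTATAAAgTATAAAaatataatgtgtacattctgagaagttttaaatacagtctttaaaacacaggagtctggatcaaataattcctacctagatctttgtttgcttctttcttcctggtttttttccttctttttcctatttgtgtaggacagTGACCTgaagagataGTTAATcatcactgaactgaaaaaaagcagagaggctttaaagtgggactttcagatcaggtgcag

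Slco1a4, chr6:141804721-141804970, minus strand: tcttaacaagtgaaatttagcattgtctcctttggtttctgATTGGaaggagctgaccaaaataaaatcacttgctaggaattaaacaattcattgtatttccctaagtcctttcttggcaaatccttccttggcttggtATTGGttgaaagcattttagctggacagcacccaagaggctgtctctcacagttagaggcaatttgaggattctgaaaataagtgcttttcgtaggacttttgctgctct

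Slco1a1, chr6:141895484-141895733, minus strand: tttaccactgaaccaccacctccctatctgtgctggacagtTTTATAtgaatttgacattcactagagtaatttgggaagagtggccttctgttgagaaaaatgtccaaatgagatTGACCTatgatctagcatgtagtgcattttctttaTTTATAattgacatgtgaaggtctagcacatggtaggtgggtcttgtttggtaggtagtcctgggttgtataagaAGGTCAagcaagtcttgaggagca

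These upstream sequences were poor in CpG. Slco1b2 and Slco1a1 held 0 CpG and Slco1a4 held 1, and the GC content was 33.6, 40.4 and 39.2%, beside medians of 9 CpG and 54.4% GC over 21418 protein-coding autosomal genes. The other 3 members were alike, with 1 CpG each and 41.2 to 46% GC. Slco1b2 held GTTAAT at −66 to −61 and AGGTCA on the minus strand at −81 to −76, letters found in 5.78 and 12.6% of all such sequences. Slco1a1 held AGGTCA at −24 to −19 and again on the strand opposite to the gene at −134 to −129. TATAAA was found in 12.4% of all sequences and in 4 of the 6 members. Slco1b2 held it at −234 to −229 and at −227 to −222. Slco1a1 held it on the strand opposite to the gene, at −209 to −204 and at −99 to −94. There was 1 match each in Slco1c1, at −30 to −25, and Slco1a5, at −97 to −92. CCAAT was found in 34.7% of all sequences, with 2 matches in Slco1a4 and 1 in Slco1c1. Slco1a6 had no match, and the letters just before its record start, TACAG, resemble the end of an intron, so whether this start is a transcription start was not settled. A match is a stretch of letters and was not tested for binding.

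Other transporter genes were counted in the same way, as a description and with no test of a difference from the members. Of 9 Slco genes elsewhere in the genome, 6 had a CTCF peak and 5 a Rad21 peak within 10 kb of the start, and 0 had a CNC peak, beside 71.3, 69.6 and 20.9% of all genes. The strongest such CTCF peak was at Slco2b1 with 23.5, and the 3 genes without one were Slco6b1, Slco6c1 and Slco6d1, themselves known from testis. Of 16 other hepatic bile acid and drug transporter genes, 12 had a CTCF peak and 13 a Rad21 peak within 10 kb, and 7 had a CNC peak, beside the same shares of all genes. Within 1 kb, a CNC peak was present at 3 of the 16, namely the organic anion transporter Slc22a7, the efflux pump gene Abcb1a and the canalicular export pump gene Abcc2, beside 3 of 6 Slco1 members and 9.20% of all genes. The 4 of the 16 without a CTCF peak within 10 kb were Slc51a, Abcb1b, Abcc2 and Abcg2. Slc10a2, the apical bile acid carrier gene, had the strongest one, 29.7 at −1.68 kb.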

How the data were processed

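CTCF and Rad21 ChIP-seq was performed on liver nuclei of individual female mice, with 4 and 3 libraries, grouped by the labels. The authors aligned reads to mm9 with Bowtie2, retained reads with a single mapping, merged the libraries per antibody, called peaks with MACS2, and discarded blacklisted peaks as well as those built from identical reads alone. For each peak the deposited lists give a fold enrichment over local background (a ratio), a −log10 q and a summit offset from the peak start, all used as deposited. Per-library values and depths were not in the lists, so neither replicate error nor depth per peak could be given, and a deeper pool would yield more peaks. A site without a peak can still be bound. Strength was compared within a list, never between the factors.

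Peaks were intersected, and distances to gene record starts measured, in Python 3.11.15 with numpy 2.4.6 and pandas 2.3.3, and sequence was read with pysam 0.24.0. The genome was NCBIM37 with GENCODE annotation, whose chromosome lengths held all peaks. The motif matrix was learned from the 1000 strongest CTCF peaks of odd-numbered autosomes, so chromosome 6 was not used to learn it, and the background was 55849 windows. Unique 50-mers were counted on both strands, coding sequences were aligned with biopython 1.88, and plots used matplotlib 3.10.9. The overlap, distance, motif and uniqueness steps were tested on simulated data. All transporter genes were matched by symbol, Slc51a and Slc51b as Osta and Ostb.

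No test was run, as peaks are not replicates. The members, gene lists and comparisons were chosen with earlier results of these data known, and the 4 promoter motifs, the CNC run and the similarity between motif surroundings were chosen after values were seen. Named peaks were the nearest CTCF and Rad21 peak of each member, the 15 CAC peaks of highest CTCF fold enrichment and the strongest of each class. Other peaks were named after their values were seen. Alternatives were peaks with a −log10 q of at least 10 or a fold enrichment of at least 5, flanks of 0, 50 and 200 kb, overlap of 50%, summits within 100 bp, −log10 q as strength, any transcript start, summit distances, a 5% motif background, 50 bp around the summit, 36-mers and a 1-kb limit for transporters.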

Additional observations from a re-analysis of the deposited data

How the results depend on the processing

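No paired analysis was possible because each list was called on pooled libraries and carries no replicate. Of 81 recomputed summary values, 65 stayed within 1.5 times the reported value. At a minimum −log10 q of 10, the window held 16 Rad21 peaks and 3 CNC peaks (1 of them a CAC peak whose CTCF partner was lost), the median distance from member starts to a Rad21 peak rose to 18.0 kb, 0 members had a CTCF peak within 10 kb, and 0 and 1 members had a Rad21 peak within 1 and 10 kb. Of the 9 Slco genes elsewhere, 3 then had a Rad21 peak within 10 kb, beside 61.9% of all genes. At a minimum fold enrichment of 5 the window held 11 CTCF and 13 Rad21 peaks, namely 10 CAC, 1 Lone CTCF and 3 CNC. These single-factor peaks are CAC peaks whose partner was lost, and 0 of the 13 CNC peaks and 0 of the 3 Lone CTCF peaks remained. In the whole lists the upper quartile of fold enrichment was 4.15 for CNC and 5.08 for Lone CTCF peaks. Most peaks of either class therefore lay below 5 in the whole lists as well. Without flanks it held 10 CTCF peaks, of which 8 were CAC, and with 200-kb flanks 31, of which 27 were CAC. Thus the CNC peaks at the starts of Slco1b2, Slco1a4 and Slco1a1 depend on weak calls. From any transcript start, the nearest CTCF and CAC peak of Slco1a4 lay 12.5 kb away. At the higher q the nearest Rad21 peak lay at −24.4 kb for Slco1c1, 10.99 kb for Slco1b2, −1.56 kb for Slco1a4 and −15.5 kb for Slco1a1, and the nearest CTCF peak at 23.2 kb for Slco1a4, −15.6 kb for Slco1a1 and −20.6 kb for Slco1a5. The nearest CAC peak of Slco1a4 then lay at −31.8 kb.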
